A study of Homo sapiens with 8 samples.

Results

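In RNA-seq of A549 cells, 10 genes were picked because both YWHAG knockdown libraries lay well above both of their scramble siRNA controls while the LY6K-AS knockdown libraries did not follow: SETD7, NBN, TAF9B, CYCS, PDHX, C12orf73, LCLAT1, GNPNAT1, RP2 and KLHL2. They are 10 of the 66206 genes listed in each deposited table, and 10 of the 13903 tested in the siRNA table. They were selected on their RPKM in both contrasts, so the values below describe these genes and carry no test. The choice states no threshold; by size of increase the 10 genes ranked from 2 (SETD7) to 120 (TAF9B) of 13903.

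A549 is an established human lung adenocarcinoma line, and RNA was sequenced from 8 libraries in 4 groups of 2. All cells were transfected with an oligonucleotide using RNAiMAX. LNA gapmers were given at 25 pmol, either scramble or directed at LY6K-AS, a long non-coding RNA, and siRNAs at 40 pmol, either scramble or directed at YWHAG. Titles give the LY6K-AS gapmers as LNA1 and LNA3 and the YWHAG siRNAs as si1 and si2; whether these are separate oligonucleotides is not settled by the labels. Nothing says that replicates were separate cultures, and p-values cover the spread between these samples alone, which may be technical. For the siRNA controls the table's numbers, 2 and 3, are used here, since they differ from those of the labels. The LNA and siRNA libraries stand in separate tables of RPKM, reads scaled by gene length and library depth, normalized separately. The LNA table was divided by gene span and is given here rescaled to exon length, as the siRNA table has it.

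An siRNA directs the RNA-induced silencing complex to transcripts that pair with its guide strand along its length, and these are cleaved. The guide can also lower transcripts that pair only with its seed, a short stretch near its 5′ end, most often through sites in the 3′ UTR, so a scramble siRNA can have targets of its own. A gapmer works by another route, recruiting RNase H to the RNA it binds. YWHAG encodes the gamma member of the 14-3-3 family, adaptor proteins that bind phosphorylated partners in signalling, metabolism and the cell cycle.

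The 10 genes share no single pathway. CYCS, PDHX, C12orf73 and LCLAT1 act in or on mitochondria, SETD7, NBN and TAF9B work in the nucleus, and GNPNAT1, RP2 and KLHL2 act in sugar nucleotide synthesis, ciliary protein trafficking and ubiquitination. Their ratios of mean RPKM in YWHAG knockdown to siRNA control ran from 2.05 (TAF9B) to 4.46 (LCLAT1). The median difference was 1.50 on the log2(RPKM + 1) scale, against -0.05 over all genes tested. For 8 of the 10, the siRNA controls were the 2 lowest of all 8 libraries, as for 11.2% of genes tested in both tables. For SETD7, LCLAT1, GNPNAT1, RP2 and KLHL2 the LNA controls of the other table were close to the YWHAG knockdown. The choice placed the siRNA controls below the YWHAG knockdowns, and levels set across the tables rest on separate normalizations.

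YWHAG was at 163 and 158 RPKM in siRNA controls 2 and 3 and at 13.5 and 4.91 in YWHAG knockdowns 1 and 2, which is 8.45% and 3.06% of the control mean. The antisense gene at LY6K, annotated as LNCOC1, went from 34 and 17 reads (LNA controls) to 3 and 8 (LY6K-AS knockdowns). Depth was 26.2 to 34.6 M reads per library. Of 10 epithelial and A549 markers the summed level was 3207 to 5281 RPKM; the 4 endothelial markers were all below 0.1 RPKM everywhere, as were 4 of 5 immune and 3 of 6 fibroblast markers. The immune sum was 2.12 and 2.85 RPKM in the siRNA controls and 1.60 and 0.583 in the YWHAG knockdowns, and the fibroblast sum was 2.44 and 2.62 against 2.28 and 1.03. The part of either in the values below was not tested. In bulk RNA, fewer cells with a transcript and less of it per cell cannot be told apart.

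CYCS encodes cytochrome c, which carries electrons from complex III to complex IV and triggers the apoptosome when released. It was the most abundant of the 10 genes, at 17.4 and 18.4 RPKM in siRNA controls 2 and 3 and at 60.9 and 49.7 in YWHAG knockdowns 1 and 2. It was at 26.5 and 25.6 RPKM in LNA controls 1 and 2 and at 22.3 and 18.3 in the LY6K-AS knockdowns. The YWHAG knockdowns were thus the highest of the 8 libraries, above the LNA controls too. The difference between YWHAG knockdown and its control was 1.57 ± 0.15 (log2, standard error, n = 2 per group).

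PDHX encodes component X, the subunit that tethers the E3 enzyme to the core of the pyruvate dehydrogenase complex. It was at 5.63 and 5.76 RPKM in the siRNA controls, 17.6 and 21.6 in the YWHAG knockdowns, 11.8 and 12.3 in the LNA controls, and 10.2 and 14.3 in the LY6K-AS knockdowns. The siRNA controls were the lowest libraries and the YWHAG knockdowns the highest, with the LNA libraries between. The difference in the siRNA table was 1.61 ± 0.15 (log2, standard error, n = 2 per group).

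C12orf73, also known as BRAWNIN, encodes a small protein of the mitochondrial inner membrane needed for assembly of complex III. It was the least abundant of the 10, at 0.974 and 1.00 RPKM in the siRNA controls, 3.73 and 3.63 in the YWHAG knockdowns, 2.33 and 2.50 in the LNA controls, and 2.31 and 2.97 in the LY6K-AS knockdowns. The order of the groups was that of PDHX. The siRNA control values rest on 104 and 107 reads, whose Poisson 95% intervals of 85.0 to 126 and 87.7 to 129 lie far below the 399 and 379 reads of the YWHAG knockdowns; intervals cover counting error only.

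LCLAT1 encodes a lysocardiolipin acyltransferase that remodels the acyl chains of cardiolipin and other phospholipids. Its RPKM was 1.66 in both siRNA controls, 7.29 and 7.50 in the YWHAG knockdowns, 6.73 and 7.13 in the LNA controls, and 5.60 and 4.94 in the LY6K-AS knockdowns. The siRNA controls stood apart below the other 6 libraries, and the YWHAG knockdowns were close to the LNA controls. The log2 difference in the siRNA table was 1.66 ± 0.12 (standard error, n = 2 per group).

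SETD7 encodes a lysine methyltransferase that acts on histone H3 and on other proteins. It was at 3.25 and 3.08 RPKM in the siRNA controls and at 15.5 and 12.5 in the YWHAG knockdowns, while the LNA controls were at 14.6 and 14.3 and the LY6K-AS knockdowns at 14.6 and 14.5. Set across the tables, which were normalized separately, the siRNA controls were low and the other 6 libraries lay together. Its difference of 1.84 ± 0.15 (log2, standard error, n = 2 per group) was the largest of the 10.

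NBN encodes nibrin, which joins MRE11 and RAD50 in the complex that senses DNA double-strand breaks and activates ATM. It was at 5.68 and 5.48 RPKM in the siRNA controls, 14.9 and 15.4 in the YWHAG knockdowns, 11.5 and 11.6 in the LNA controls, and 9.57 and 7.11 in the LY6K-AS knockdowns. The 4 groups did not overlap; the siRNA controls were lowest and the YWHAG knockdowns highest. The log2 difference in the siRNA table was 1.29 ± 0.12 (standard error, n = 2 per group).

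TAF9B encodes a histone-fold protein of the transcription factor complex TFIID and a close relative of TAF9. It was at 6.99 and 6.33 RPKM in the siRNA controls, 13.2 and 14.1 in the YWHAG knockdowns, 9.49 and 9.71 in the LNA controls, and 6.06 and 5.51 in the LY6K-AS knockdowns. It differed least of the 10 in the siRNA table, by 0.94 ± 0.13 (log2, standard error, n = 2 per group), and most in the LNA table, by -0.64 ± 0.09, and the LY6K-AS knockdowns were its lowest libraries. TAF9 was at 5.11 and 4.30 RPKM in the siRNA controls and at 5.11 and 8.21 in the YWHAG knockdowns, so its groups overlapped, and it is listed at 0 in all 4 LNA libraries.

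GNPNAT1 encodes the acetyltransferase that makes N-acetylglucosamine-6-phosphate on the way to UDP-GlcNAc, the donor for protein glycosylation. It was at 3.18 and 2.92 RPKM in the siRNA controls, 10.5 and 12.4 in the YWHAG knockdowns, 9.83 and 10.2 in the LNA controls, and 9.91 and 7.47 in the LY6K-AS knockdowns. The siRNA controls were far below the other 6 libraries, among which the YWHAG knockdowns were highest. The log2 difference in the siRNA table was 1.62 ± 0.14 (standard error, n = 2 per group).

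RP2 encodes a GTPase-activating protein for ARL3 that takes part in delivering lipidated proteins to the cilium. It was at 1.65 and 1.58 RPKM in the siRNA controls, 5.55 and 6.17 in the YWHAG knockdowns, 5.56 and 5.58 in the LNA controls, and 7.01 and 5.96 in the LY6K-AS knockdowns. The YWHAG knockdowns overlapped with the LNA libraries, and the siRNA controls were below all of them. The log2 difference in the siRNA table was 1.39 ± 0.13 (standard error, n = 2 per group).

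KLHL2 encodes a substrate adaptor of CUL3 ubiquitin ligases that, like KLHL3, targets WNK kinases. It was at 1.12 and 1.16 RPKM in the siRNA controls, 4.25 and 5.34 in the YWHAG knockdowns, 4.77 and 4.85 in the LNA controls, and 4.21 and 3.99 in the LY6K-AS knockdowns. Set across the tables, the siRNA controls were again low, and the other 3 groups lay close together. The log2 difference in the siRNA table was 1.43 ± 0.15 (standard error, n = 2 per group); its paralog KLHL3 was below 0.1 RPKM in all 4 siRNA libraries.

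**Figure D1:**
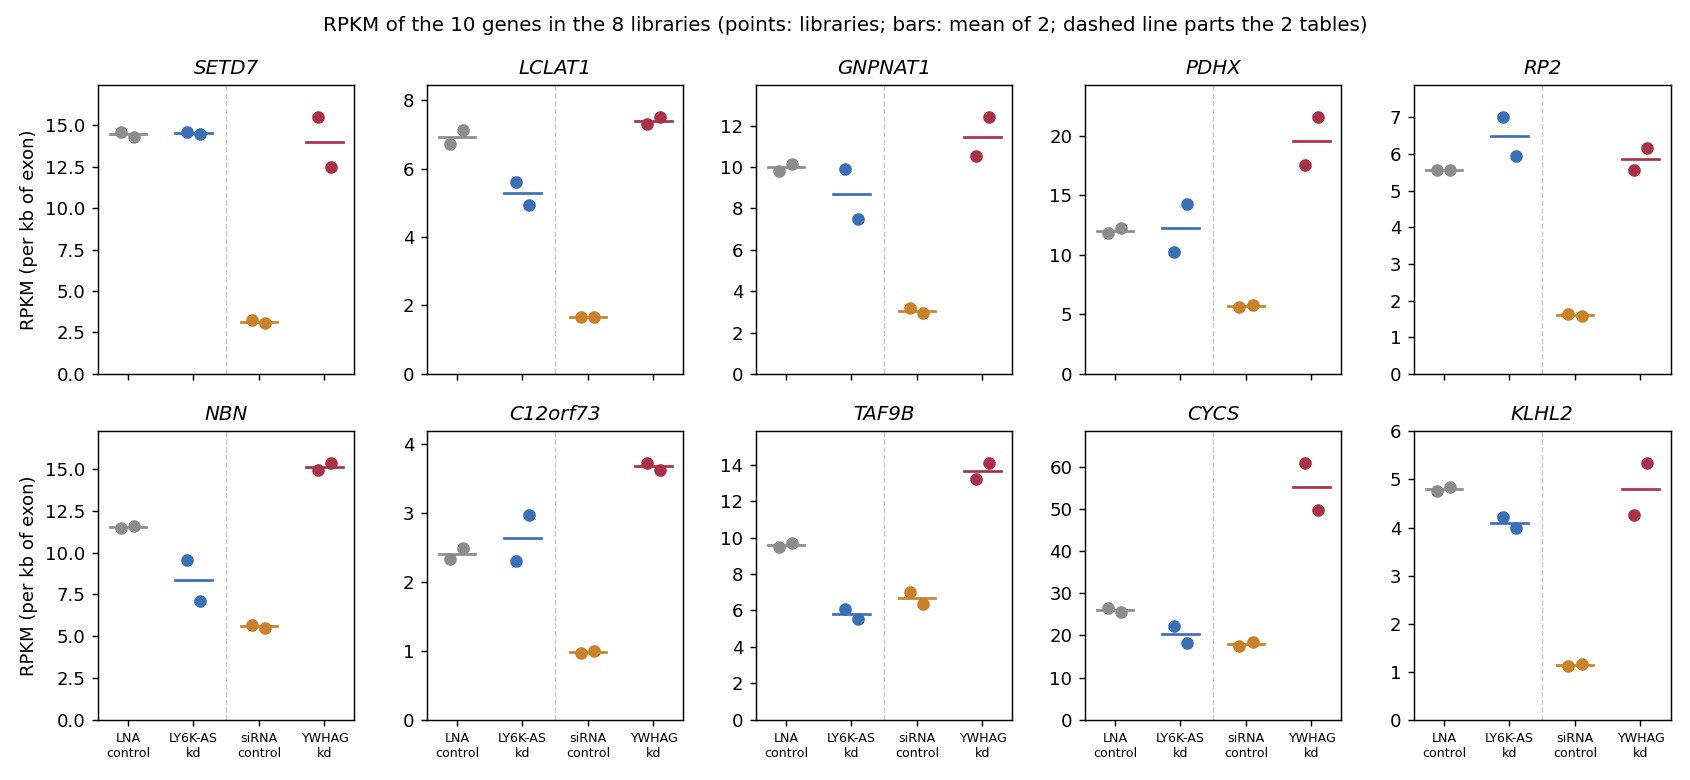
RPKM per kilobase of merged exon (y axis) of each of the 10 genes in the 8 libraries, by group; points are libraries, bars are means of 2, and the dashed line parts the 2 tables, which were normalized separately. The siRNA controls are below the YWHAG knockdowns in every panel and are the lowest of the 8 libraries in all panels but TAF9B and CYCS.

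Within the siRNA table, both YWHAG knockdown libraries were above both controls for 10 of the 10 genes, as the choice requires; this held for 20.4% of all genes tested, while both were below both controls for 30.8%. With n = 2 per group, limma on log2(RPKM + 1) with Benjamini-Hochberg adjustment called 0 of 13903 genes at an adjusted p under 0.05, 0% of those tested; 2281 genes (16.4%) had an unadjusted p under 0.05, 1044 of them higher (7.51%), and limma voom on recovered reads also called 0. With the spread pooled over all 8 libraries, limma called 214 of 12861 genes (1.66%), 140 of them higher (1.09%) and 74 lower (0.575%). The 10 genes are among those 140, which the choice on the same contrast makes no test. Of the 10, 9 were among the 100 largest increases and all 10 among the 500 largest. Other genes among the first 8 by rank were CXCL5 at 2.50, MIR4263 at 1.71, EFHD2 at 1.70, IGFL2-AS1 at 1.66, UBE2V2 at 1.65 and ANKRD1 at 1.64, named here after their values were seen.

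The 2 YWHAG knockdown libraries differed little from each other for these genes, which a choice on both libraries favours. Knockdown 2 minus knockdown 1 ran from -0.29 (log2) for CYCS to 0.28 for PDHX, and the siRNA controls differed from each other by -0.12 to 0.08. The median of the 10 was 1.40 in knockdown 1 and 1.51 in knockdown 2. The correlation of a gene's profile over the 8 libraries with the mean of the other 9 was 0.918 for TAF9B, the lowest, and 0.997 for LCLAT1, the highest; the libraries are shared by all these points, so the coefficients are a description.

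In the LNA table the 10 genes had a median difference of -0.19 (log2) between LY6K-AS knockdown and LNA control, against 0.00 over all 14662 genes tested. LCLAT1 (-0.34 ± 0.10), NBN (-0.44 ± 0.15), TAF9B, CYCS (-0.35 ± 0.12) and KLHL2 (-0.19 ± 0.09) were below both LNA controls in both LY6K-AS knockdowns, 5 of 10 where 30.5% of all genes were. RP2 (0.18 ± 0.11) was the single gene above both controls in both knockdowns, where 31.4% of all genes were. SETD7 (0.01 ± 0.08), PDHX (0.01 ± 0.17), C12orf73 (0.09 ± 0.13) and GNPNAT1 (-0.19 ± 0.15) had overlapping groups. These differences were part of the choice and have no test; limma called 0 of 14662 genes in this contrast (0%), with 3706 (25.3%) at an unadjusted p under 0.05, and limma voom called 0 too. With the pooled spread limma called 64 of 12861 (0.498%), 25 higher (0.194%) and 39 lower (0.303%), none of them among the 10.

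**Figure D2:**
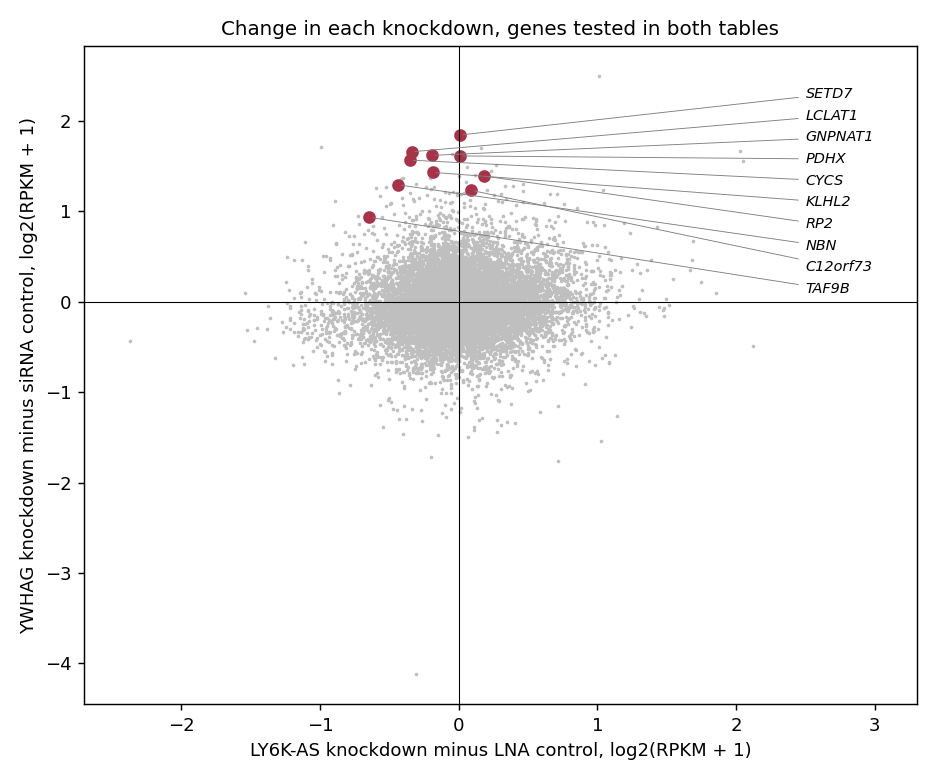
Change in the YWHAG knockdown (y axis) against change in the LY6K-AS knockdown (x axis), both as differences of mean log2(RPKM + 1) from their own controls; each point is 1 of the 12861 genes tested in both tables, and the 10 genes are in red. The 10 lie between 0.94 and 1.84 on the y axis and between -0.64 and 0.18 on the x axis.

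Set against the LNA controls, the siRNA controls were lower for every one of the 10 genes, and the YWHAG knockdowns minus the LNA controls lay between -0.05 and 0.18 (log2) for 5 of them. The siRNA control minus the LNA control had a median of -1.15 (log2) over the 10, from -1.89 for SETD7 to -0.47 for TAF9B, against -0.13 over 12861 genes. The middle 90% of all genes ran from -1.43 to 0.91, so SETD7, LCLAT1 (-1.58), GNPNAT1 (-1.44) and KLHL2 (-1.44) lay below it. The YWHAG knockdown minus the LNA control had a median of 0.27 over the 10, against -0.18 over all genes.

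It was -0.05 for SETD7, -0.01 for KLHL2, 0.06 for RP2, 0.08 for LCLAT1 and 0.18 for GNPNAT1, and larger for NBN (0.37), C12orf73 (0.46), TAF9B (0.47), PDHX (0.65) and CYCS (1.05). For 9 of the 10 genes the YWHAG knockdown was nearer to the LNA control than the siRNA control was, as for 50.1% of all genes. The siRNA controls were the 2 lowest of 8 libraries for 8 of the 10, as for 11.2% of all genes. The choice itself placed the siRNA controls below the YWHAG knockdowns, so these counts partly restate it and carry no test. All 10 were raised against the siRNA control, as the choice requires. Set across the tables, PDHX, CYCS, NBN, C12orf73 and TAF9B were above the LNA controls as well. SETD7, KLHL2, RP2, LCLAT1 and GNPNAT1 were near the LNA controls, between -0.05 and 0.18. Levels set across these tables rest on separate normalizations and on LNA values rescaled from gene span to exon length, and the part of either in these differences was not tested.

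**Figure D3:**
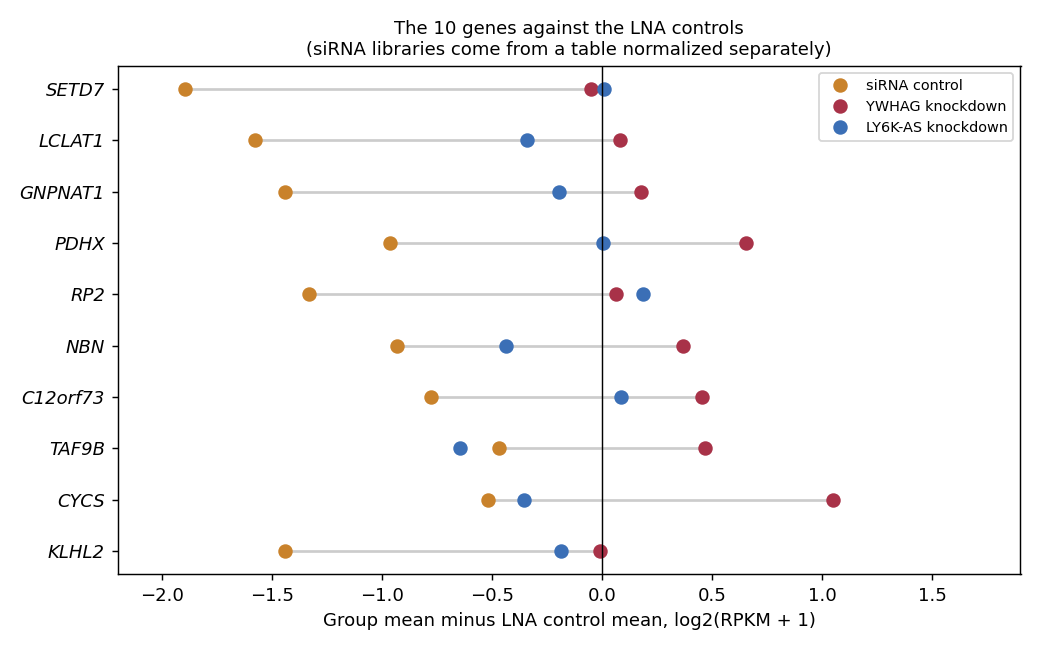
Group mean minus LNA control mean on the log2(RPKM + 1) scale (x axis) for each of the 10 genes; points are the siRNA control, the YWHAG knockdown and the LY6K-AS knockdown, and the siRNA libraries come from a table normalized separately. The siRNA control is left of 0 for all 10 genes, and the YWHAG knockdown lies between -0.05 and 0.18 for SETD7, LCLAT1, GNPNAT1, RP2 and KLHL2.

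The 3′ UTRs of these genes share a short word, shown here because its number of copies went with the size of the difference over other genes. In GENCODE 29 on GRCh38 (hg38), 9 of the 10 longest annotated 3′ UTRs hold the heptamer GAATATA, read on the transcript strand, against 1733 of 11283 tested genes with a 3′ UTR (15.4%). LCLAT1 holds none but has the hexamer GAATAT in 2 places; all 10 genes hold the hexamer, against 37.2% of tested genes. The word was found by screening words of the 3′ UTR against the YWHAG contrast after its values were seen, so these shares, and the medians and ranks over other genes below, restate that screen and are a description. NBN held 3 copies, RP2, TAF9B and KLHL2 held 2, and SETD7, GNPNAT1, PDHX, C12orf73 and CYCS held 1. Among the 10, the log2 difference in the YWHAG contrast did not rise with copies. It was 1.66 for LCLAT1 with 0, 1.23 to 1.84 with 1, 0.94 to 1.43 with 2 and 1.29 for NBN with 3. The sites below are in transcript orientation, 5′ to 3′, with the heptamer (for LCLAT1 the hexamer) in capitals. For each gene 1 site is shown, the other sites of RP2, TAF9B, KLHL2 and LCLAT1 are left out, and none is shown for NBN. The sites of RP2 and TAF9B left out have G after the heptamer, where those shown have A.
SETD7: atgatagaatGAATATAtttaaatgaa
CYCS: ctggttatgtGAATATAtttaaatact
PDHX: tcttgagtcgGAATATAtttaaataaa
GNPNAT1: ttaaccaaagGAATATAtttttaactt
C12orf73: gtttagtcttGAATATAacgcgaaata
RP2: aacaactcagGAATATAacatataagg
TAF9B: aagcttttgaGAATATAaacacacctg
KLHL2: ttgattacatGAATATAataaattatg
LCLAT1: acttgggccaGAATATtattaaacaa

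These sites lie at chr4:139507536-139507562 (minus strand) for SETD7, chr7:25123334-25123360 (minus) for CYCS and chr11:34995926-34995952 (plus) for PDHX. The site in GNPNAT1 is at chr14:52778066-52778092 (minus), that in C12orf73 at chr12:103951270-103951296 (minus) and that in RP2 at chrX:46881895-46881921 (plus). The TAF9B site is at chrX:78130306-78130332 (minus), the KLHL2 site at chr4:165322547-165322573 (plus) and the LCLAT1 site at chr2:30640852-30640877 (plus). All are exonic and within the 3′ UTR. SETD7, CYCS and PDHX share the 14-base run GAATATAtttaaat, which 5 of the 11283 genes (0.0443%) hold, these 3 and 2 others. The base just before the heptamer is T in SETD7 and CYCS and G in PDHX. A match is a description of letters; the siRNA sequences were not given in the sources used here, and the part of these sites in the differences was not tested.

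Across the other genes, those with the heptamer were higher in the YWHAG knockdown relative to its control than those without. With the 10 left out, 1724 genes with it had a median difference of 0.07 (log2) and the others -0.08. Ranked by this difference of medians, GAATATA was 2 of the 15836 heptamers held by at least 100 genes; the first was CGAATAT, held by 181 genes, which shares the hexamer. It ranked 2 in YWHAG knockdown 1 and 1 in YWHAG knockdown 2, and 2 after a trend with GC content was removed.

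The groups overlapped broadly, with quartiles of -0.24 and 0.10 at 0 copies and -0.16 and 0.29 at 1. The median went up with the number of copies, from -0.08 for 9549 genes with none to 0.04 for 1375 with 1, 0.11 for 262 with 2 and 0.18 for 87 with 3 or more. The share of genes above 0 was 37.9%, 55.1%, 63.0% and 69.0% in the same order. Genes with more copies had longer 3′ UTRs, with a median of 1179 bases at 0 copies and 5931 at 3 or more. Within each class of length the genes with the heptamer were higher: 0.14 against -0.05 below 1000 bases, 0.09 against -0.09 from 1000 to 2000, 0.08 against -0.10 from 2000 to 4000, and 0.01 against -0.10 above that. Of the 100 other genes with the largest increases, 57% held the heptamer, against 15.4% of tested genes with a 3′ UTR. The word was screened on this same contrast, so this share restates the screen.

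In the other contrasts the word separated genes to differing degrees and in differing directions. Between siRNA controls 3 and 2 the difference of medians was -0.02. Between LY6K-AS knockdown and LNA control it was -0.12, rank 739 of 15886 from the low end. The lowest word in that contrast was TTTTAAA, at -0.20. Against the LNA controls, the difference of medians in the siRNA controls was 0.08, rank 6459 of 15796. In the YWHAG knockdown against the LNA controls it was 0.26, rank 491, in the direction seen against the siRNA controls. Both of these comparisons cross the tables, and the words at their extremes differed in base composition, with TTTTAAA highest and CGCGGGG lowest in the siRNA controls against the LNA controls; the part of composition was not tested.

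**Figure D4:**
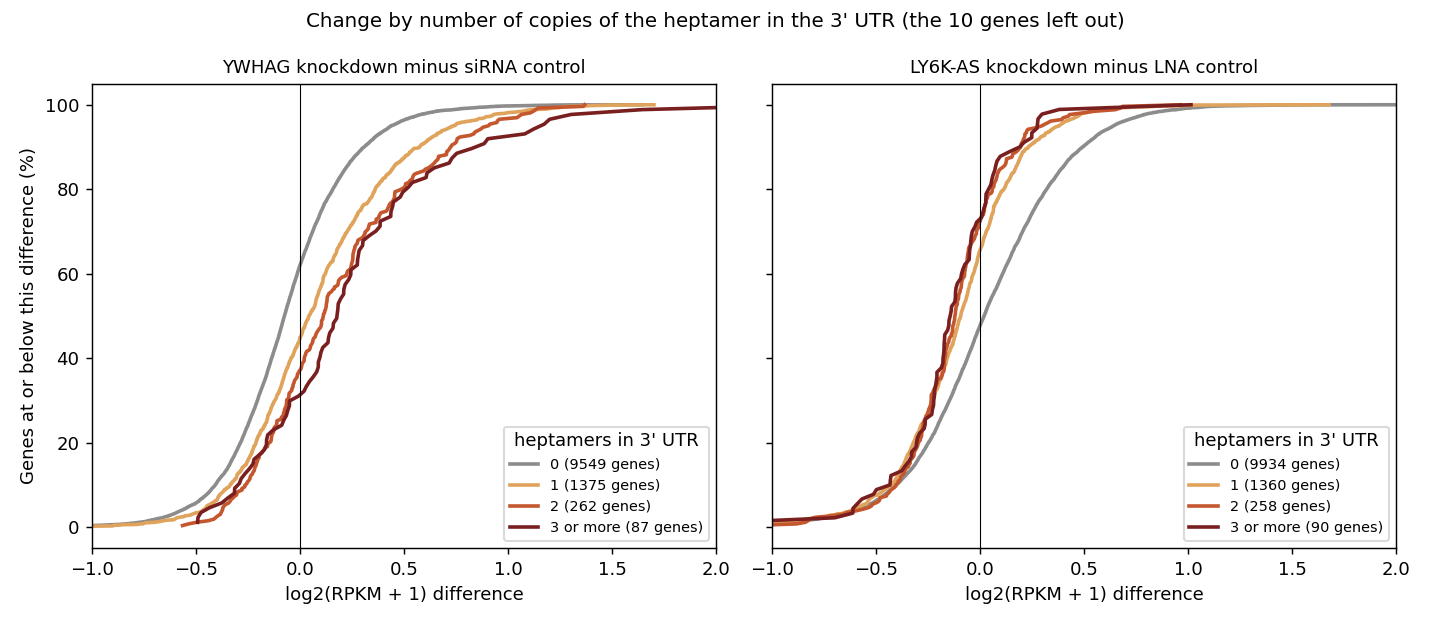
Cumulative share of genes (y axis, percent) at or below a given difference of log2(RPKM + 1) (x axis, shown from -1 to 2) by number of heptamer copies in the 3′ UTR, the 10 genes left out; YWHAG knockdown minus siRNA control on the left, LY6K-AS knockdown minus LNA control on the right. On the left the curves move right with the number of copies, from a median of -0.08 at 0 copies to 0.18 at 3 or more; on the right they move left, from 0.02 to -0.14.

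The 10 genes also differed from the other tested genes in base composition. Their transcripts had a median GC content of 40.7% (36.2 to 44.2%), against 47.9% over all genes of the siRNA table, and their 3′ UTRs 35.4% against 42.4%. Their 3′ UTRs had a median length of 2418 bases (950 to 5627), against 1390, while merged exon length was 3941 bases against 4433. With a GC trend removed from each library the median of the 10 was 1.56 in the YWHAG contrast and -0.04 in the LY6K-AS contrast, the latter nearer to 0 than the -0.19 without it.

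The partners of these genes in their pathways were taken from 10 lists, 1 for each gene. Of 149 such genes tested in the YWHAG contrast, 56 were higher and 93 lower, with a median of -0.08 (log2) against -0.05 over all genes. Limma called 0 of them; 8 were higher and 15 lower at an unadjusted p under 0.05, where 7.51% and 8.9% of all genes were. With the spread pooled over 8 libraries limma called 3 of 145, where 1.66% of all genes were called: DLD and TAF12 higher (adjusted p = 0.0393 and 0.0461) and PDPR lower (adjusted p = 0.0490). In the LY6K-AS contrast 58 of 145 were higher and 87 lower, with 0 called. At an unadjusted p under 0.05, 13 were higher and 19 lower, where 13.6% and 11.7% of all genes were.

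Of 13 other genes of the pyruvate dehydrogenase complex and its regulators, 7 were higher and 6 lower than the siRNA control, with a median of 0.02. DLD, the E3 subunit that PDHX holds, was at 15.8 and 16.1 RPKM in the siRNA controls and at 27.6 and 26.6 in the YWHAG knockdowns (log2 difference 0.73 ± 0.12, limma adjusted p = 0.179). DLAT, the E2 core subunit, differed by 0.40, and PDPR, a regulatory subunit of the phosphatase, by -0.78. Of 15 genes of complex III and its assembly, 10 were higher and 5 lower (median 0.06). The assembly factor LYRM7 differed by 0.74, UQCC2 by -0.33 and the core subunit UQCRC1 by 0.31.

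For cytochrome c, 5 of 12 apoptosome genes and partners were higher and 7 lower (median -0.05), among them the caspase CASP9 at -0.39 and the protease HTRA2 at 0.23. For LCLAT1, 10 of 17 genes of cardiolipin synthesis and acyl transfer were higher and 7 lower (median 0.03), with AGPAT5 at 0.36, MBOAT7 at 0.41 and CDS1 at -0.23. For GNPNAT1, 6 of 11 hexosamine genes were higher and 5 lower (median 0.02), with the O-GlcNAc transferase OGT at 0.58, GNPDA1 at -0.28 and GFPT2 at -0.48. The GFPT2 value rests on YWHAG knockdown 2, since without it the difference was 0.02. No gene of these 3 lists passed the test.

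Of 12 tested genes of double-strand break sensing 0 were higher and 12 lower (median -0.20), where 57.6% of all genes were lower. At an unadjusted p under 0.05, 4 of the 12 were lower, where 8.9% of all genes were, and none passed the test. The LY6K-AS contrast was similar, with 1 of the 12 higher and 11 lower (median -0.13), where 49.7% of all genes were lower. There 5 were lower at an unadjusted p under 0.05 (limma), where 11.7% of all genes were. In the YWHAG contrast ATMIN differed by -0.61 and the ubiquitin ligases RNF168 and RNF8 by -0.60 and -0.65. Of 19 other lysine methyltransferases 3 were higher and 16 lower (median -0.12), with SETD3 at -0.52, EZH2 at -0.49 and SETD2 at -0.60. Of 26 TFIID and SAGA genes 6 were higher and 20 lower (median -0.13), with TAF12 at 0.74, TAF5L at -0.54 and TBP, the TATA-binding protein, at 0.42.

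For RP2, 4 of 11 genes of ARL3 cargo release and the tubulin cofactors were higher and 7 lower (median -0.04), with UNC119B at 0.20 and TBCA at -0.18. For KLHL2, 5 of 13 genes of CUL3-KLHL ligases and the WNK pathway were higher and 8 lower (median -0.12). KEAP1, the CUL3 adaptor for NRF2, differed by -0.68, the WNK target kinase OXSR1 by -0.63 and WNK1 by -0.35. None of these genes passed the test.

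Genes next to the 10 lay on either side of their controls. Of 16 tested nearest protein-coding neighbours, 6 were higher and the median was -0.11, from -0.70 for EHF, the neighbour of PDHX, to 0.97 for LBH, the neighbour of LCLAT1. Close neighbours were STYX, 196 bases from GNPNAT1, at -0.05, TDG, 96 bases from C12orf73, at -0.22, and PGK1, 452 bases from TAF9B, at 0.44. The submitters' notes do not say whether strand was used, so reads where genes overlap on opposite strands cannot be told apart.

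C12orf73 overlaps HSP90B1, a far more abundant gene, over 3444 bases; HSP90B1 was at 284 and 256 RPKM in the siRNA controls and 269 and 282 in the YWHAG knockdowns (difference 0.03). PDHX overlaps APIP (-0.31), NBN overlaps DECR1 (0.10) and KLHL2 overlaps TMEM192 (0.48). SETD7 overlaps AC112236.2, which was below 0.5 RPKM in the siRNA libraries. CYCS has 40 annotated pseudogenes, 20 of them with reads; they summed to 17 to 32 reads per library, against 2513 to 9379 for CYCS itself.

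The genes whose profile over the 8 libraries, centred on the controls of each table, was most like the mean of the 10 were GPR180, GID8, RCN2, ERO1A and CYTOR (Pearson r from 0.995 to 0.997 among 8934 candidates, over the same 8 libraries). GPR180 was at 1.25 and 1.33 RPKM in the siRNA controls, 3.33 and 3.52 in the YWHAG knockdowns and 2.04 and 2.15 in the LNA controls. GID8 was at 5.99 and 6.02 in the siRNA controls, 9.49 and 10.1 in the YWHAG knockdowns and 13.7 and 14.0 in the LNA controls. CYTOR was at 4.88 and 4.63 in the siRNA controls, 8.89 and 9.63 in the YWHAG knockdowns and 1.48 and 1.46 in the LNA controls. RCN2 was at 3.69 and 3.53 in the siRNA controls, 8.41 and 8.66 in the YWHAG knockdowns and 8.29 and 7.90 in the LNA controls, the pattern seen for LCLAT1. ERO1A was at 12.5 and 12.7 RPKM in the siRNA controls, level with 12.7 and 12.6 in the LNA controls, and at 20.5 and 20.7 in the YWHAG knockdowns. GPR180 held 2 copies of the heptamer and GID8 held 1, while RCN2 and ERO1A held none but 4 and 2 of the hexamer, and CYTOR, a non-coding RNA, has no 3′ UTR.

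The 10 genes lie on 8 chromosomes at these GENCODE 29 spans (GRCh38): SETD7 at chr4:139495941-139606699, KLHL2 at chr4:165207618-165323156, LCLAT1 at chr2:30447226-30644225 and GNPNAT1 at chr14:52775194-52791668. PDHX is at chr11:34915829-35020591, C12orf73 at chr12:103950202-103965708, CYCS at chr7:25120091-25125361 and NBN at chr8:89933336-90003228. RP2 is at chrX:46836940-46882358 and TAF9B at chrX:78129748-78139706.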

How the data were processed

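The deposited values were RPKM made by the authors, in 1 table for the LNA libraries and 1 for the siRNA libraries. STAR, featureCounts, Subread, Picard and the build hg38 appear per the submitters' processing notes, without versions, roles or settings. Identifiers were matched to GENCODE 29: 57055 of 66206 matched, 52238 with the same version. Multiplying the deposited RPKM by gene length showed the length used: gene span (end minus start) gave whole reads for 100% of values within 0.05 reads in the LNA table, and merged exon length for 100% in the siRNA table. The LNA values were therefore rescaled to merged exon length; GNPNAT1 matched with another identifier version, so its length was not checked this way. Whether reads in introns were counted in the LNA table was not given in the sources used here. Depth was 26.2 to 34.6 M reads per library.

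Each knockdown was fitted within its table with limma 3.58.1 in R 4.3.3 (intensity trend, log2(RPKM + 1), two-sided, Benjamini-Hochberg over all genes tested, threshold 0.05), on genes reaching an RPKM of 0.5 in 2 or more libraries. A fold change on this scale understates the change of low genes. Other steps used Python 3.11.15 and pandas 2.3.3, and the fit was tested on simulated data. The alternatives were pseudocounts of 0.1 and 0.5, other filters, median-ratio scaling, voom on recovered reads, a pooled spread, removal of a GC trend, the LNA values as deposited, a replicate block, and leaving out each library.

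The 10 genes and all gene lists were chosen with earlier results of these data known. Genes named were the 10, the targets, 3 genes with the smallest p per list, paralogs, neighbours, overlapping genes and the 5 most similar profiles, pseudogenes and small RNAs left out of the last. Some genes that this rule names are not reported here. The 3′ UTR used was the longest annotated one of each gene, with at least 20 bases.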

Additional observations from a re-analysis of the deposited data

How the results depend on the processing

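The 10 genes stayed above the siRNA control under every alternative run, from 0.87 (log2, TAF9B) to 2.16 (LCLAT1). Their median of 1.50 was 1.80 with a pseudocount of 0.1, 1.64 with 0.5 and 1.87 with voom, and 1.40 to 1.51 with 1 library left out. Their LY6K-AS median of -0.19 was -0.042 with the GC trend removed, -0.052 with the values as deposited, and -0.30 to -0.18 with 1 library left out. With the spread pooled over 8 libraries, limma called 214 genes in the YWHAG contrast, 3 of them related genes, and 64 in the LY6K-AS contrast, 1 of them a related gene. Leaving out 1 library gave 0 to 0 calls in the YWHAG contrast and 0 to 7725 in the LY6K-AS contrast, with 0 to 84 related genes: 7725 and 84 without LY6K-AS knockdown 1, and 4350 and 45 without LY6K-AS knockdown 2. There the remaining knockdown library takes its spread from the controls. GFPT2, at -0.48, ran from -0.99 without YWHAG knockdown 1 to 0.024, a reversal, without YWHAG knockdown 2; the cause was not tested.

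In the LNA table the difference of replicate 1 minus 2 correlated little between the groups (r = 0.0797 over 14662 genes). The LY6K-AS libraries may come from separate gapmers, so this cannot show whether the samples were paired. With the replicate block 0 genes were called, 3432 at an unadjusted p under 0.05, and the median of the 10 was -0.19. For the siRNA table no such fit was made. No paired analysis was possible because, in that table alone, the control columns carry other numbers than the labels. Pairs of libraries limit the precision: the smallest adjusted p was 0.130 in the YWHAG contrast and 0.103 in the LY6K-AS contrast.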
